A study of Mus musculus with 8 samples.

Results

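The interferon-stimulated genes outside the OAS and GBP families were followed here as 33 named genes, each matched to 1 row of a deposited table of 26848 genes by its symbol. The cells were RAW264.7, an established mouse line with macrophage character, and they were grown on PEEK (polyetheretherketone), an implant polymer. One group was on smooth PEEK and the other on nano/microstructured PEEK, here called structured, with 4 libraries each, and the question was how surface topography bears on macrophage gene expression. Both groups are the same cell line, with no further treatment or culture time given in the labels. Of 9 macrophage markers listed, 8 passed the filter on low counts. Csf1r, the receptor for macrophage growth factor, stood between 1570 and 1740 CPM in the 8 libraries. Mertk, the marker that did not pass, reached at most 0.269 CPM and was at 0 in smooth 4 and structured 2. The libraries are called smooth 1 to 4 and structured 1 to 4 after their library names, and levels are in CPM, counts scaled to the library's total. Totals ran from 64479829 to 73098735 count units per library, and 3 fragments, taken as 12 units, correspond to 0.166 to 0.186 CPM. The labels call some libraries biological replicates and name no separate cultures, so p-values measure only the spread between these libraries, which may be technical.

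Type I interferons bind a cell surface receptor whose kinases JAK1 and TYK2 pass the signal to the complex ISGF3. This complex, which contains STAT2 and IRF9, binds the interferon-stimulated response element (ISRE) in promoters and switches on genes that sense viral nucleic acid, block viral replication or modify proteins. Macrophages hold a low standing level of this programme, and several of its products, IRF9, IRF7 and the RNA sensors among them, act back on the pathway. In bone, interferon signalling is known to restrain the formation of osteoclasts from macrophage precursors.

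Of the 33 genes, 32 passed the filter on low counts and were tested. Of these 6 rose on structured PEEK and 0 fell (edgeR quasi-likelihood test, Benjamini-Hochberg adjustment over all 16006 genes tested, threshold 0.05), where 1.01% of all tested genes rose and 2.75% fell, 3.75% in all. The 6 were Irf9, Rtp4, Parp14, Ddx58, Parp9 and Ube2l6. At an unadjusted p under 0.05 the counts were 19 higher and 1 lower, against 8.14% and 10.6% of all genes. The median log2 fold change of the tested genes was 0.49, against 0.01 over all tested genes, and 30 of 32 were above 0, against 51.2%. The 2 genes Zbp1 and Ifit3b reached the count minimum in 2 smooth libraries each and passed mainly through the structured group, and without them and the untested Mx1 the median over the other 30 was 0.47. In these bulk samples more responding cells and more RNA per cell cannot be told apart.

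All 4 structured libraries lay above all 4 smooth libraries for 10 of the 32 genes, against 5.19% of all tested genes, and none lay entirely below, against 7.03%. The 10 were the 6 named above with Isg15, Ifit1, Ifi44 and Phf11d. The number past the threshold depended on the libraries and the test. Without smooth 2, smooth 3, smooth 4, structured 2 or structured 4, Irf9 was the 1 gene called. Without structured 1, Irf9 and Ube2l6 were called, and without structured 3 there were 10. DESeq2, which gave no adjusted p for 9 of the 32, called 12 higher, against 3.45% of all tested genes (553 of 16006, of which 10726 had an adjusted p), and limma on log2(FPKM + 0.5) called 1. Over all genes 161 were called higher and 440 lower, so that 73.2% of calls were lower. That share was 61.4% with DESeq2 and 54.5% with each library's trend on GC content and transcript length removed.

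**Figure D1:**
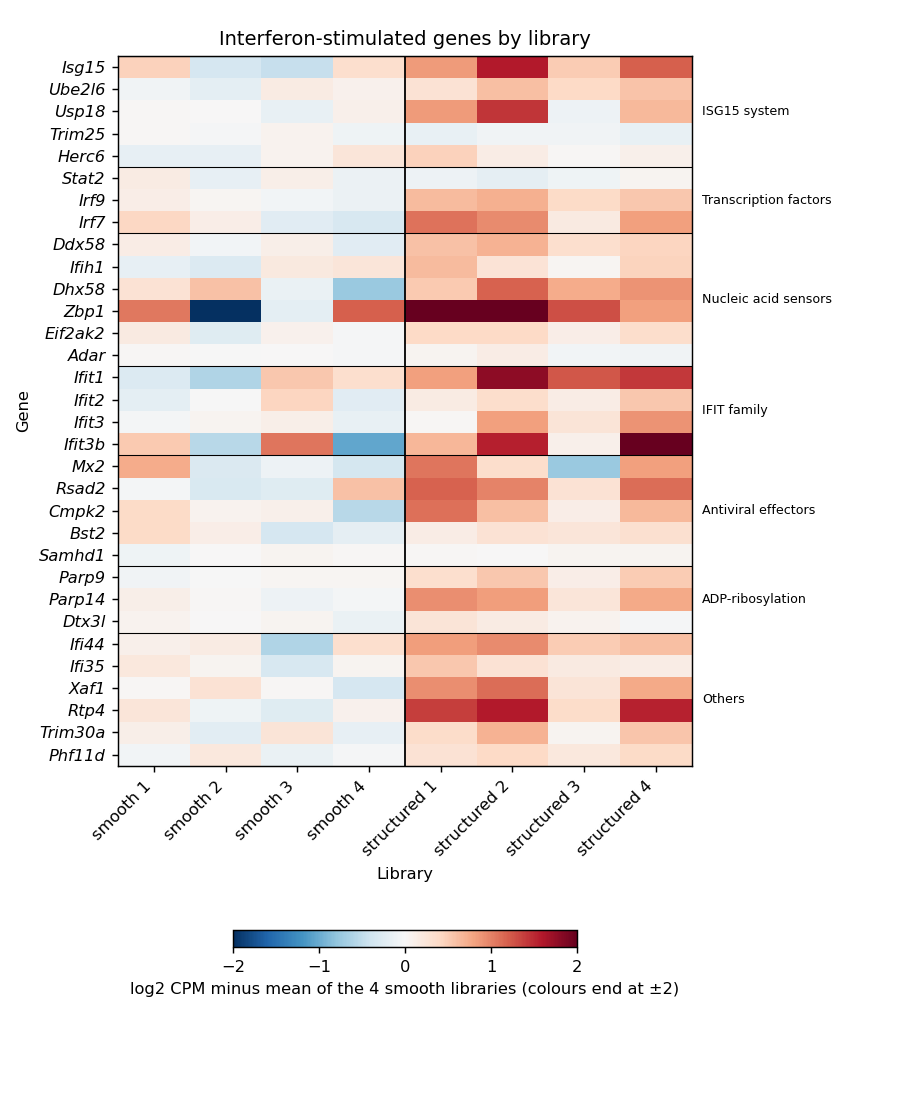
Level of each of the 32 tested genes (rows, grouped by role) in each library (columns), as log2 CPM minus the mean of the 4 smooth libraries, with colours ending at 2 in either direction. Most rows are red in structured 1, 2 and 4 and paler in structured 3; Trim25, Stat2, Adar and Samhd1 stay near white.

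Sequences are shown to let the presence or absence of the ISRE be seen at genes that rose and at genes with large fold changes. RefSeq promoter windows (GRCm38.p6; 250 bases before to 50 after the start site) were matched by symbol for 25 of the 33 genes. They were searched on both strands for the ISRE core GAAANNGAAA, whose reverse strand reads TTTCNNTTTC, and matches may overlap. The core was present for 11 of the 25 genes (44.0%), against 3.99% of 27025 genes with a window. It was found for 4 of 6 OAS windows, 5 of 5 GBP windows and 0 of 8 windows of interferon receptors and kinases. The 200 bases before the start site are printed 5′ to 3′ for the members past the threshold that have a window and for the 3 others with the core and the highest log2 fold changes, with the core in capitals.
Isg15: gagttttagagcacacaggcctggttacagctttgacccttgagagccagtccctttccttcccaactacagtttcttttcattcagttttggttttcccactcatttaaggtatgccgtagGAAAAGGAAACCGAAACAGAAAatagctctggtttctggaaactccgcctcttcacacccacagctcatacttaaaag
Ifit1: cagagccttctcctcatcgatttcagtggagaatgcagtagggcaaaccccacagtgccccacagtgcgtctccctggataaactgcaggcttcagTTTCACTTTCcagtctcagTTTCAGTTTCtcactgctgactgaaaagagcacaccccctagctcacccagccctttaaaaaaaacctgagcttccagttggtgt
Ifit3b: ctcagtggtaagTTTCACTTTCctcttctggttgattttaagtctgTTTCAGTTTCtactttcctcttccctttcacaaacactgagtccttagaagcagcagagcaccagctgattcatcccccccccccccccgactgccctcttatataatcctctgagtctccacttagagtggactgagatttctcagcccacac
Ddx58: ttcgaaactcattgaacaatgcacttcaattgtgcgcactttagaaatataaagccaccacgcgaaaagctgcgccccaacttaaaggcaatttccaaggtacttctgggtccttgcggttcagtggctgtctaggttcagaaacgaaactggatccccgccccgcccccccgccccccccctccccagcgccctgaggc
Irf9: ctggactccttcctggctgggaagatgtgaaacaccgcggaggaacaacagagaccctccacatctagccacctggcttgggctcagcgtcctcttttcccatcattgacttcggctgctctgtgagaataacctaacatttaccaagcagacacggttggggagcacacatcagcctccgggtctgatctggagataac
Ube2l6: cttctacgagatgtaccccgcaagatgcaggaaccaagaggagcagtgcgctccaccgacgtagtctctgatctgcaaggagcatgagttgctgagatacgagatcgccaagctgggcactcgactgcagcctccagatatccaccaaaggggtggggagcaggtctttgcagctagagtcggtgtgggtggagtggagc

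These windows are chr4:156200819-156201018 on the minus strand for Isg15, chr19:34640689-34640888 on the plus strand for Ifit1 and chr19:34607757-34607956 on the plus strand for Ifit3b. They are chr4:40239826-40240025 on the minus strand for Ddx58, chr14:55603785-55603984 on the plus strand for Irf9 and chr2:84798628-84798827 on the plus strand for Ube2l6. Isg15 held 3 overlapping matches that begin 78, 72 and 66 bases before its start site. Ifit1 held 2, at 104 and 85 bases, and Ifit3b held 2, at 188 and 154 bases. In Ddx58 the 1 match begins 2 bases after the start site and so lies outside the printed stretch. The windows of Irf9 and Ube2l6 held none of these letters, and the RefSeq start of Irf9 lies 414 bases from the gene's 5′ end in the deposited table. The 11 genes with the core had a median log2 fold change of 0.51 (1 of 11 past the threshold) and the 14 without it 0.30 (2 of 14). The ranges overlapped, from -0.08 to 1.33 and from -0.11 to 0.79. The called genes Rtp4, Parp14 and Parp9 were among the 8 members without a window and are outside this split.

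Among the transcription factors, Irf9, the DNA-binding partner of STAT2 in ISGF3, rose and had the lowest adjusted p of the 32 genes. Irf9 stood at 15.9, 14.7, 13.9 and 13.2 CPM in smooth 1 to 4 and at 22.3, 23.5, 18.7 and 21 CPM in structured 1 to 4. The lowest structured library lay above the highest smooth library. The means were 14.4 ± 1.13 and 21.4 ± 2.04 CPM (SD over 4 libraries each), and the log2 fold change was 0.57 ± 0.09 (SE), with an edgeR adjusted p = 0.00992. Irf9 was called with each of the 8 libraries left out in turn and had log2 fold changes from 0.43 to 0.63 over 20 alternatives. In the deposited table's coordinates, as for the other genes, it is on chromosome 14, 55603571 to 55610030 (ENSMUSG00000002325), and the end of its neighbour Rnf31 overlaps it by 123 bases on the same strand, with Rnf31 at 20.1 and 19.9 CPM in the smooth and the structured group.

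Irf7, which amplifies interferon-alpha transcription, had means of 4.69 ± 1.12 and 8.01 ± 1.98 CPM (SD over 4 libraries each), with structured 3, at 5.20 CPM, inside the smooth range of 3.69 to 6.11. Its log2 fold change of 0.77 ± 0.21 (SE) did not pass the threshold (edgeR adjusted p = 0.0705), though Irf7 was called without smooth 1, without structured 3 and with DESeq2. Stat2, a subunit of ISGF3, stood at 16.7, 13.3, 16.0 and 13.6 CPM in smooth 1 to 4 and 13.8, 13.1, 14.0 and 15.4 CPM in structured 1 to 4. The groups of Stat2 overlapped, with a log2 fold change of -0.08 ± 0.09 (SE, adjusted p = 0.740 by edgeR). Whether Irf9 differed from Stat2 in its response was not tested.

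**Figure D2:**
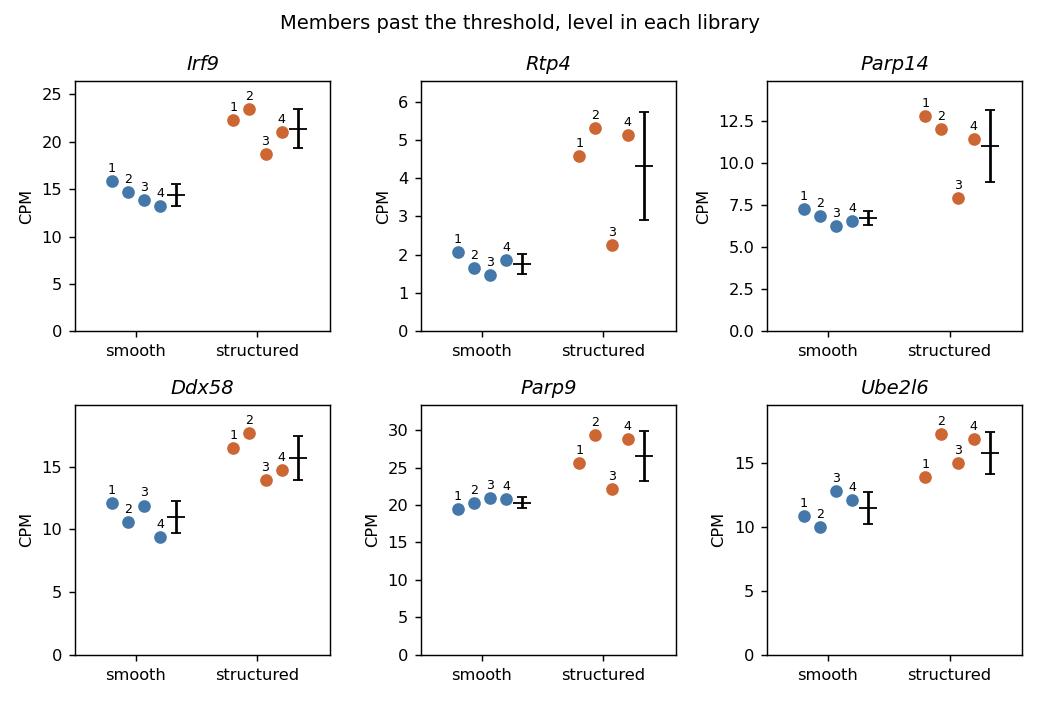
Level in CPM (vertical axes start at 0) of the 6 genes past the threshold in each library, smooth in blue and structured in orange, numbered by library, with the mean and SD beside each group. No structured library falls within the smooth range, and structured 3 is the lowest structured library for 5 of the 6 genes, all but Ube2l6.

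The ISG15 system attaches the ubiquitin-like protein ISG15 to other proteins. Ube2l6, its conjugating enzyme, rose. It stood at 10.9, 9.98, 12.8 and 12.1 CPM in smooth 1 to 4 and at 13.9, 17.3, 15.0 and 16.9 CPM in structured 1 to 4, with no overlap (log2 fold change 0.46 ± 0.10, SE; edgeR adjusted p = 0.0351). Without smooth 1, 2, 3 or 4, or without structured 2 or 4, Ube2l6 was not called, nor was it with the GC and length trend removed. It lies on chromosome 2, 84798828 to 84810176 (ENSMUSG00000027078). Isg15 itself, at 1.14, 0.650, 0.589 and 1.05 CPM in smooth 1 to 4 and 1.51, 2.52, 1.18 and 1.92 CPM in structured 1 to 4, had the larger fold and did not overlap between the groups. It did not pass the threshold with edgeR, and DESeq2 gave it no adjusted p (log2 fold change 1.05 ± 0.31, SE; edgeR adjusted p = 0.0870).

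Usp18, which removes ISG15 and damps signalling at the receptor, had 4.19 ± 0.300 and 7.34 ± 3.07 CPM (SD over 4 libraries each). Its structured libraries were spread from 3.88 CPM in structured 3 to 11.3 CPM in structured 2 (log2 fold change 0.81 ± 0.25, SE; edgeR adjusted p = 0.106), and DESeq2 called it higher (adjusted p = 0.00779). Herc6, the mouse ligase for ISG15, had a log2 fold change of 0.19 ± 0.14. A same-strand transcript, Gm45193, shares 23.8% of the 50-base stretches of the longest Herc6 transcript, so the Herc6 count is uncertain. Trim25, a ubiquitin ligase that acts with the RNA sensor RIG-I, was abundant and stood at 227, 220, 235 and 209 CPM in smooth 1 to 4 and at 201, 212, 211 and 202 CPM in structured 1 to 4. The groups overlapped between 209 and 212 CPM, and the log2 fold change of -0.11 ± 0.04 (SE, adjusted p = 0.179 by edgeR) was the lowest of the 32.

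Of 6 sensors and effectors of foreign or self nucleic acid, Ddx58, which encodes RIG-I, rose. Ddx58 stood at 12.1, 10.6, 11.9 and 9.40 CPM in smooth 1 to 4 and at 16.5, 17.7, 13.9 and 14.7 CPM in structured 1 to 4. Every structured library was above every smooth one (log2 fold change 0.51 ± 0.11, SE; edgeR adjusted p = 0.0285). The call was kept without smooth 1 or structured 3 and lost without each of the other 6 libraries. Ddx58 lies on chromosome 4, 40203773 to 40239825 (ENSMUSG00000040296).

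The other RNA helicases had overlapping groups. Ifih1, which encodes MDA5, had 4.53 ± 0.802 and 5.77 ± 1.00 CPM (SD over 4 libraries each; log2 difference 0.35 ± 0.17, SE). Dhx58, encoding the regulator LGP2, had 2.16 ± 0.810 and 3.71 ± 0.726 CPM (0.78 ± 0.27; edgeR adjusted p = 0.131), and DESeq2 called it higher (adjusted p = 0.0288). An antisense transcript, Dhx58os, overlaps Dhx58. Eif2ak2, the kinase PKR that stops translation on double-stranded RNA, stood at 40.3, 30.3, 37.7 and 35.2 CPM in smooth 1 to 4 and 46.9, 47.2, 39.1 and 45.6 CPM in structured 1 to 4. Structured 3 lay below smooth 1, and the log2 fold change was 0.32 ± 0.09 (SE; edgeR adjusted p = 0.0719). DESeq2 called Eif2ak2 higher (adjusted p = 0.00462). Adar, which edits double-stranded RNA, had 102, 99.2, 101 and 98.0 CPM in smooth 1 to 4 and 104, 111, 96.0 and 95.0 CPM in structured 1 to 4, a log2 fold change of 0.02 ± 0.05. Its sign turned without structured 2 (-0.03). Chrnb2 on the opposite strand shares 20.1% of the 50-base stretches of Adar.

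Zbp1, a sensor of Z-form nucleic acid, had the highest log2 fold change of the 32, 1.69, with the widest error (SE 0.83; edgeR adjusted p = 0.308). Its levels were near the limit of counting: 0.225, 0, 0.0775 and 0.25 CPM in smooth 1 to 4 and 0.692, 0.649, 0.270 and 0.186 CPM in structured 1 to 4, around the 3-fragment level. Structured 4 lay inside the smooth range.

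The IFIT family, proteins that bind viral RNA ends, lies in 1 cluster on chromosome 19 in the order Ifit2, Ifit3, Ifit3b, Ifit1. None of the 4 genes passed the threshold with edgeR or voom. At an unadjusted edgeR p under 0.05, 1 of them, Ifit1, was higher, against 8.14% of all tested genes. DESeq2 gave an adjusted p for Ifit2 alone, which did not pass. Ifit1 stood at 0.435, 0.339, 0.791 and 0.679 CPM in smooth 1 to 4 and 0.966, 1.92, 1.29 and 1.47 CPM in structured 1 to 4. The groups of Ifit1 did not overlap (log2 fold change 1.33 ± 0.33, SE; edgeR adjusted p = 0.0520). It was called, as the seventh member, with the stricter count filter and with counts divided by 4.

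Ifit2, the most abundant of the family, had 7.70 ± 1.72 and 9.39 ± 1.24 CPM (SD over 4 libraries each; log2 difference 0.29 ± 0.16, SE). Ifit3 had 0.541, 0.579, 0.605 and 0.499 CPM in smooth 1 to 4 and 0.563, 1.00, 0.668 and 1.05 CPM in structured 1 to 4, where structured 1 lay within the smooth range. Ifit3b had 0.180, 0.0707, 0.279 and 0.0416 CPM in smooth 1 to 4 and 0.202, 0.398, 0.128 and 0.636 CPM in structured 1 to 4, with both groups spread around the limit of counting. Ifit3 and Ifit3b are near copies. Of the 50-base stretches of the longest Ifit3 transcript 51.2% are found in Ifit3b, and 44.5% the other way round, so how reads were split between them is uncertain.

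Among the antiviral effectors none of 5 tested genes passed the threshold with edgeR or voom, and all had overlapping groups. At an unadjusted edgeR p under 0.05, 2 of the 5 were higher, against 8.14% of all tested genes. DESeq2 gave an adjusted p for 2 of them, Bst2 and Samhd1, and neither passed. Rsad2, which encodes viperin, had 0.877 ± 0.282 and 1.64 ± 0.416 CPM (SD over 4 libraries each; log2 difference 0.90 ± 0.29, SE; edgeR adjusted p = 0.113). Cmpk2, its neighbour on chromosome 12 and a nucleotide kinase that supplies viperin's substrate, had 1.40 ± 0.360 and 2.17 ± 0.596 CPM (0.63 ± 0.26). The pair is transcribed divergently, with 12751 bases between them. Structured 3 was the lowest structured library for both.

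Bst2, the membrane tether that holds budding virus, had the highest level of the 33 per gene length, a mean of 45.6 FPKM. In CPM Bst2 stood at 51.6, 43.8, 31.6 and 35.1 on smooth and 44.1, 48.8, 46.9 and 49.6 on structured PEEK, all structured libraries within the smooth range (log2 fold change 0.22 ± 0.12, SE). Samhd1, which depletes nucleotides needed for reverse transcription, had 128, 137, 141 and 138 CPM in smooth 1 to 4 and 139, 137, 141 and 141 CPM in structured 1 to 4 (0.04 ± 0.04). Mx2 had 0.497 ± 0.212 and 0.688 ± 0.328 CPM (SD over 4 libraries each). Mx1, a GTPase against influenza virus, had 4 count units over the smooth group and 8 over the structured group, below the 12 that stand for 3 fragments, and was not tested.

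**Figure D3:**
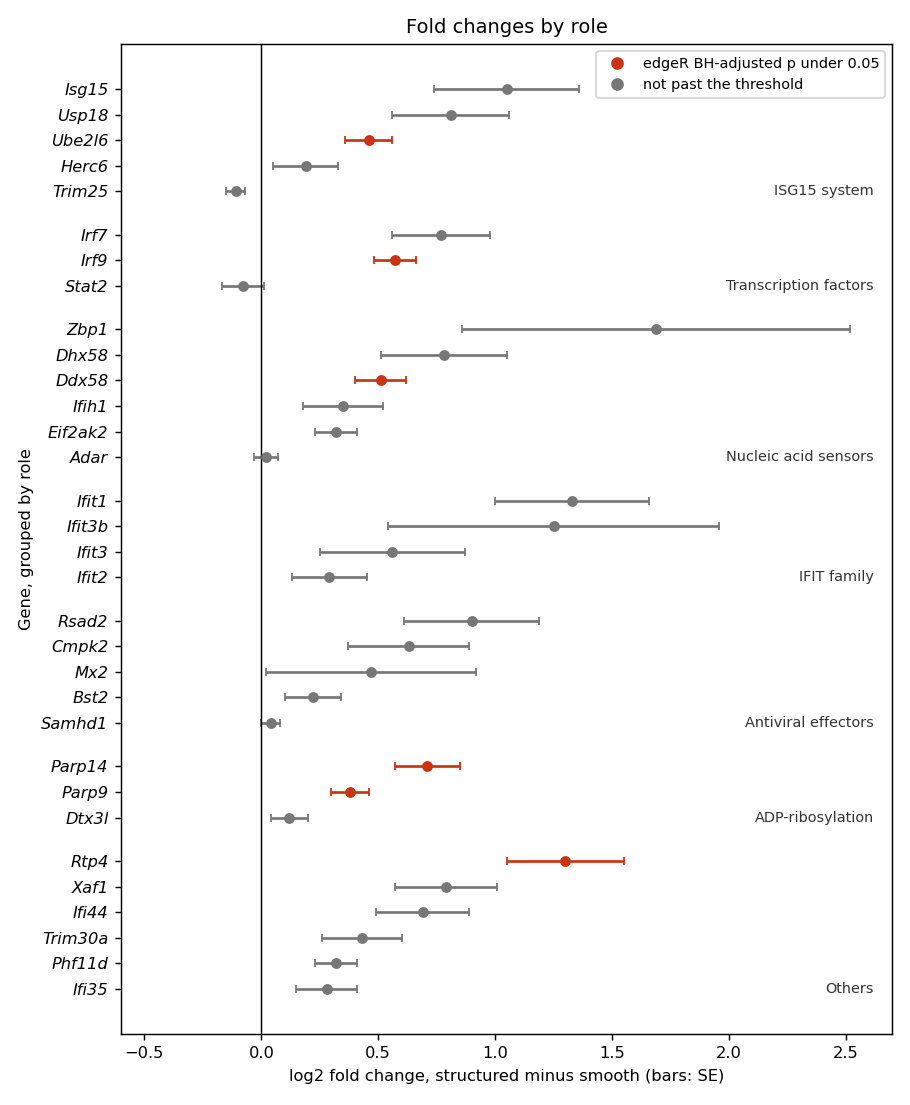
Log2 fold change, structured minus smooth, of the 32 tested genes by role, with SE bars from the edgeR fit on 4 against 4 libraries; red marks genes past the adjusted threshold. Fold changes run from -0.11 for Trim25 to 1.69 for Zbp1, and the 6 red genes lie between 0.38 and 1.30.

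Parp9, Dtx3l and Parp14 lie together on chromosome 16 and act in ADP-ribosylation, the first as a partner of the ubiquitin ligase DTX3L. Parp14 rose from 7.27, 6.85, 6.27 and 6.53 CPM in smooth 1 to 4 to 12.8, 12, 7.93 and 11.4 CPM in structured 1 to 4. The groups did not overlap, with structured 3 nearest to smooth (log2 fold change 0.71 ± 0.14, SE; edgeR adjusted p = 0.0245). Parp9 rose from 19.4, 20.2, 20.9 and 20.8 CPM to 25.6, 29.4, 22.1 and 28.8 CPM, again with structured 3 nearest (0.38 ± 0.08; edgeR adjusted p = 0.0329). Dtx3l had 17.6 ± 1.08 and 19.1 ± 1.61 CPM (SD, n = 4 per group; 0.12 ± 0.08, SE).

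Parp9 and Dtx3l overlap head to head by 682 bases on opposite strands, and 9.09% of the 50-base stretches of Parp9 lie in Dtx3l. Parp14 was called without smooth 1 or structured 3 and lost its call without each other library. Of the 8 libraries left out in turn, Parp9 kept its call only without structured 3. Parp14 spans 35832874 to 35871544 (ENSMUSG00000034422) and Parp9 35938470 to 35972605 (ENSMUSG00000022906).

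Rtp4, a chaperone of G protein-coupled receptors that also binds viral RNA, had the highest log2 fold change of the called genes. It stood at 2.06, 1.64, 1.47 and 1.86 CPM in smooth 1 to 4 and at 4.57, 5.30, 2.26 and 5.13 CPM in structured 1 to 4. Structured 3 lay just above the highest smooth library and the other 3 well above it (log2 fold change 1.30 ± 0.25, SE; edgeR adjusted p = 0.0230). The call was lost with voom, without smooth 2, 3 or 4 and without structured 1, 2 or 4. Rtp4 spans chromosome 16, 23520291 to 23614222 (ENSMUSG00000033355), and a same-strand transcript, Gm45338, shares 13.6% of its 50-base stretches.

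The other 5 genes of mixed or less defined role were Xaf1, Ifi44, Trim30a, Phf11d and Ifi35. None passed the threshold with edgeR, where all 5 were higher at an unadjusted p under 0.05, against 8.14% of all tested genes. DESeq2, with no adjusted p for Xaf1, called Ifi44 and Phf11d, and voom called none. Ifi44 had 3.65 ± 0.932 and 5.91 ± 0.850 CPM (SD over 4 libraries each) with no overlap (log2 fold change 0.69 ± 0.20, SE; edgeR adjusted p = 0.0782). Phf11d, with 11.9 ± 1.23 and 14.9 ± 0.865 CPM, also did not overlap (0.32 ± 0.09; edgeR adjusted p = 0.0761). Xaf1, an antagonist of the apoptosis inhibitor XIAP, had 1.64 ± 0.287 and 2.84 ± 0.682 CPM with structured 3 in the smooth range (0.79 ± 0.22). Trim30a had 4.51 ± 0.705 and 6.06 ± 1.14 CPM and Ifi35 10.1 ± 1.49 and 12.3 ± 1.62 CPM.

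By level per gene length, the 4 genes with a mean of at least 10 FPKM, Bst2, Trim25, Samhd1 and Adar, had log2 fold changes from -0.11 to 0.22 and none passed. Of the 15 genes from 1 to 10 FPKM 5 passed, against 1.01% of all tested genes called higher, with a median log2 fold change of 0.43. The share of all genes was not split by level. Of the 13 tested genes under 1 FPKM 1 passed, Parp14, with a median of 0.71. The summed FPKM of all 33 genes, dominated by the abundant ones, was 138 to 166 in smooth and 161 to 178 in structured libraries.

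The libraries differed in how far the genes stood above smooth. The median difference in log2 CPM from the smooth mean was 0.568 in structured 1, 0.647 in structured 2, 0.177 in structured 3 and 0.560 in structured 4. Each smooth library set against the other 3 gave -0.048 to 0.140, and the medians over all tested genes lay within 0.015 of 0 in every library. Structured 1, 2, 3 and 4 lay above every smooth library for 24, 25, 14 and 23 of the 32 genes, against 22.9%, 25.1%, 20.6% and 24.8% of all tested genes. Structured 3 was the lowest structured library for 20 of the 32 genes and structured 2 the highest for 16. In the smooth group smooth 1 was the highest for 14 genes and smooth 4 the lowest for 13.

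The roles were not spread alike over the structured libraries. The 5 antiviral effectors had their highest median difference, 1.08, in structured 1, against 0.34, 0.13 and 0.65 in structured 2 to 4, with smooth 1 at 0.50. The 4 IFIT genes stood at 1.19 and 1.16 in structured 2 and 4 and at 0.41 and 0.21 in structured 1 and 3, with smooth 3 at 0.65. In the ISG15 system the medians were 0.47, 0.60, 0.03 and 0.57, and among the transcription factors 0.63, 0.71, 0.18 and 0.54. Structured 3 was the lowest in these 4 roles. These medians rest on few genes, and no difference between roles was tested.

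**Figure D4:**
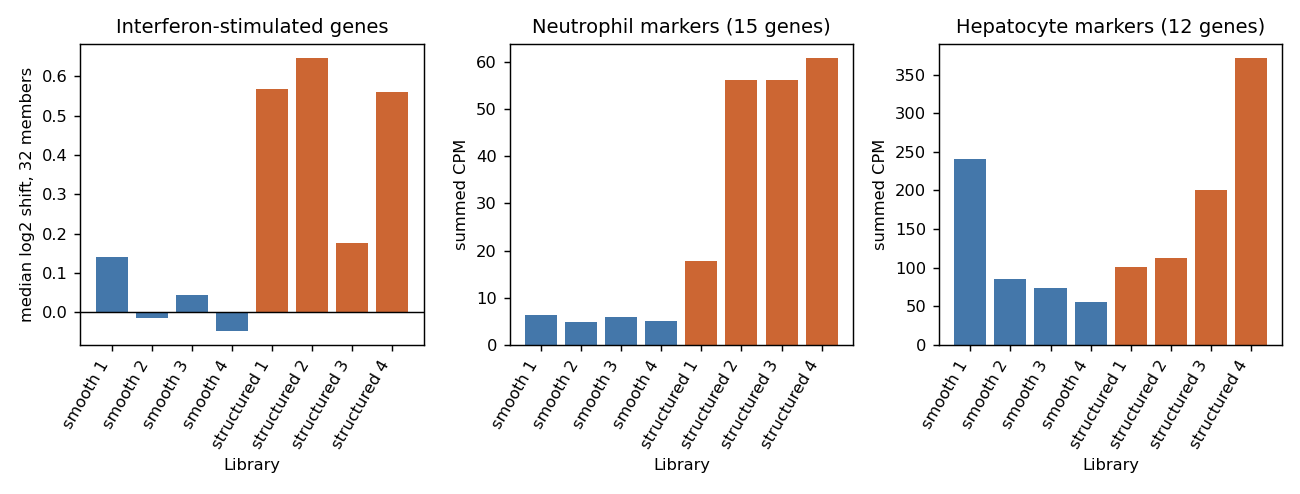
Left, median difference in log2 CPM over the 32 tested genes, each library against the smooth mean (a smooth library against the other 3); middle and right, summed CPM of neutrophil and hepatocyte marker genes. Structured 1 to 4 have shifts of 0.568, 0.647, 0.177 and 0.560 with 17.8, 56.3, 56.1 and 60.8 CPM of neutrophil markers. The smooth libraries have shifts of -0.048 to 0.140 with 4.95 to 6.23 CPM.

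Markers of other cell types also differed between the libraries. Of 15 neutrophil markers measured, 6 were tested. By edgeR 5 of the 6, S100a8, S100a9, Lcn2, Ngp and Mmp8, were called higher on structured PEEK, against 1.01% of all tested genes. Csf3r, the other tested marker, had means of 4.25 and 4.3 CPM in the smooth and the structured group (log2 fold change 0.02 ± 0.2, SE). DESeq2 called 3 of the 4 tested markers with an adjusted p, and voom called 1. Ngp and Mmp8 were at 0 in all 4 smooth libraries, and S100a9 had 4 count units over that group. S100a8 reached at most 0.341 CPM in the smooth group. S100a8, S100a9, Ngp and Mmp8 passed the count filter mainly through the structured group, so their direction is a description only. Lcn2 was above the count minimum in every library. It stood at 1.64, 0.396, 0.698 and 1.26 CPM in smooth 1 to 4 and at 11.1, 17.4, 15.7 and 15.7 CPM in structured 1 to 4 (log2 fold change 3.9 ± 0.35, SE). The summed level of the 15 markers was 4.95 to 6.23 CPM in smooth libraries, 17.8 CPM in structured 1 and 56.1 to 60.8 CPM in structured 2 to 4. Elane and Mpo were at or near 0 in every library. Beside these sums the median differences of the interferon-stimulated genes in structured 1 to 4 were 0.568, 0.647, 0.177 and 0.560. The part of these transcripts in the result was not tested.

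Hepatocyte markers, all 12 detected in every library, summed to 56.0 to 240 CPM in smooth and 101 to 371 CPM in structured libraries, highest in smooth 1 and structured 4. Their median log2 fold change was 0.76, and 11 of 12 were above 0, against 51.2% of all tested genes. None was called by edgeR, DESeq2 or voom, and 3 were higher at an unadjusted edgeR p under 0.05, against 8.14%. All 12 had overlapping groups. Skeletal muscle markers, 10 measured, summed to 18.6 to 60.7 CPM in smooth and 15.2 to 21.2 CPM in structured libraries. Tnni2 alone stood at 9.72 to 15.7 CPM in every library, with a log2 fold change of 0.10. The median log2 fold change of the 10 was -3.07. For 6 of them all structured libraries lay below all smooth ones, against 7.03% of all tested genes. By edgeR 3 of 10, Ckm, Tnnc2 and Atp2a1, were called lower, against 2.75%, and 8 were lower at an unadjusted p under 0.05, against 10.6%. Acta1, Myh1, Myh4, Tnnt3 and Tnnc2 reached at most 0.0284 CPM in structured 3 and 4. They passed the count filter mainly through the smooth group, so their part in these counts and in the median is a description only. DESeq2 gave an adjusted p for 2 and called neither. The part of these markers was not tested either. Among markers of plasmacytoid dendritic cells, which secrete interferon, Siglech was at 0 to 0.233 CPM and Tcf4 at 91.5 to 105 CPM. Ly6d was at 0 in the smooth libraries and at 0.0426 to 0.266 CPM in the structured ones, too low to test. Bst2, also on that list, is given above. None of the 3 tested was called by edgeR.

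The steps upstream of these genes held no calls by edgeR. The 4 interferon genes with a row in the deposited table were barely detected. The other interferon genes looked for, Ifna4, Ifng and Ifnl3 among them, had no row there. Ifnb1 was at 0 in 4 of 8 libraries and reached at most 0.0931 CPM, in smooth 3, and Ifna7, Ifna13 and Ifnz reached at most 0.114 CPM. None of 8 tested receptors and kinases passed the threshold with edgeR, DESeq2 or voom, where 3 were lower and 0 higher at an unadjusted edgeR p under 0.05. Their log2 fold changes ran from -0.21 to 0.13. The receptor chains Ifnar1 and Ifnar2 had 0.01 ± 0.05 and -0.14 ± 0.06 (SE, 4 libraries per group) and Ifngr1 and Ifngr2 0.13 ± 0.06 and 0.04 ± 0.04. Il10rb, a chain of the interferon-lambda receptor, had -0.12 ± 0.09. The kinases Jak1, Jak2 and Tyk2 had -0.10 ± 0.04, -0.21 ± 0.08 and -0.03 ± 0.06. Ifnlr1, the interferon-lambda receptor, was listed at 0 in the 4 smooth libraries and at 0.0865, 0.339, 0.369 and 0.202 CPM in structured 1 to 4, and was too low to test.

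None of 6 other factors passed with edgeR or voom, with 1 higher and 3 lower at an unadjusted edgeR p under 0.05, and DESeq2 called 1 lower. Irf5, the most abundant, had a log2 fold change of -0.10 ± 0.04 and Irf3 0.23 ± 0.08. In upstream sensing 0 of 14 passed with edgeR or voom, with 2 higher and 2 lower at an unadjusted edgeR p under 0.05. DESeq2, with an adjusted p for 12 of them, called 1 higher and 1 lower. Sting1, the adaptor for cytosolic DNA, stood at 36.1, 35.9, 37.1 and 34.1 CPM in smooth 1 to 4 and 42.3, 44.3, 38.7 and 40.4 CPM in structured 1 to 4, without overlap (0.21 ± 0.05, SE; edgeR adjusted p = 0.0541). Myd88, the most abundant of that list per length, had 0.13 ± 0.05. Among 6 inhibitors none passed with edgeR or voom, nor did the 5 with an adjusted p in DESeq2 (1 higher and 1 lower at an unadjusted edgeR p under 0.05). Ptpn6, a phosphatase abundant in macrophages, had 0.09 ± 0.04 and Socs1 0.68 ± 0.58. The chemokine targets Cxcl10 and Ccl5 had 0.17 ± 0.25 and 0.74 ± 0.64, with no call by edgeR or voom, 0 at an unadjusted edgeR p under 0.05, and no adjusted p from DESeq2.

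The OAS and GBP families are the nearest groups of interferon-stimulated genes. Of 9 genes of the OAS system, whose enzymes make the activator of RNase L, 3 were called higher by edgeR, against 1.01% of all tested genes. All 9 were above 0, against 51.2%, with a median log2 fold change of 0.41. At an unadjusted edgeR p under 0.05, 6 were higher, against 8.14%. DESeq2 gave an adjusted p for 5 and called all 5 higher, and voom called 3. Those called by edgeR were Oas2 (0.86 ± 0.14, SE), Oas3 (0.81 ± 0.15) and Oasl2 (1.42 ± 0.30), and the most abundant per length, Oasl1, had 0.26 ± 0.08. Their per-library medians were 0.52, 0.72, 0.34 and 0.34 in structured 1 to 4. Of 4 tested GBP genes, which encode guanylate-binding proteins, none was called by edgeR or voom, and DESeq2 gave no adjusted p. At an unadjusted edgeR p under 0.05, 2 of these 4 were higher, against 8.14% of all tested genes. Their levels were at most 1.05 CPM, and Gbp2, Gbp7 and Gbp9 reached the count minimum in 2 smooth libraries each, so they passed mainly through the structured group and their log2 fold changes, 1.19 to 1.52, are a description only. Their median difference was 1.89 in smooth 4, above the 1.44, 1.40 and 1.08 of structured 2 to 4 and below the 2.11 of structured 1. The other 7 GBP genes were too low to test. The lists share their libraries with the 33 genes, and no difference between them was tested.

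**Figure D5:**
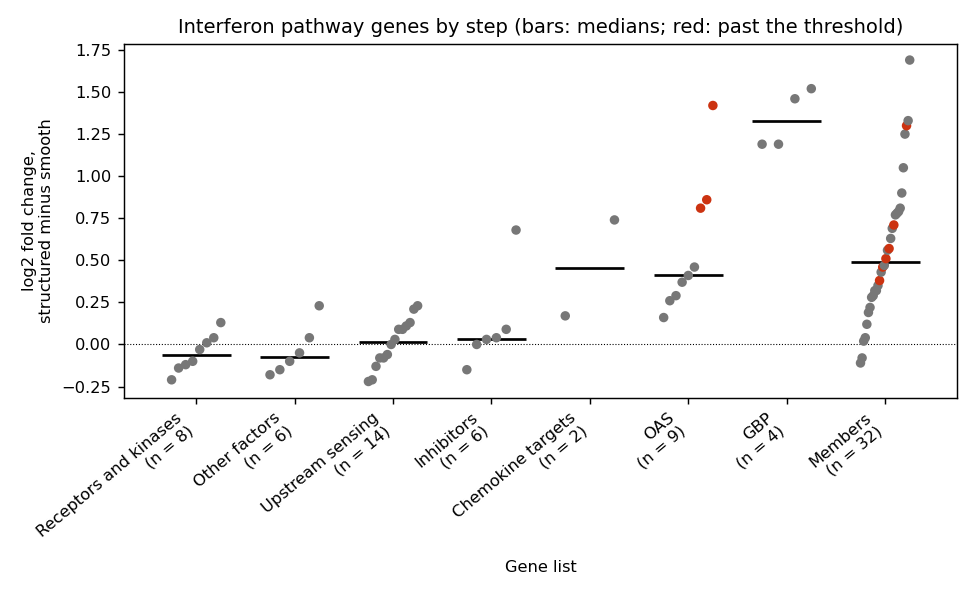
Log2 fold change, structured minus smooth, of tested genes of the interferon pathway by step, with medians as bars and genes past the threshold in red. Receptors and kinases lie between -0.21 and 0.13 with no red point, while red points appear among the OAS genes and the 32 members.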

How the data were processed

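Libraries were poly(A)-selected with dUTP strand marking and sequenced as read pairs, per the labels' protocols. The submitters' processing notes name cutadapt 1.9 and HISAT2 2.2.1. The counter, strand setting, use of the adapters' molecular identifiers and build remain not given in the sources used here. Expected counts were deposited by the authors as whole numbers, with low values piling up at multiples of 4 (8018 values of 4, 2180 of 5), so 1 fragment may count as about 4 units. The deposited FPKM values are the authors' own, named so per the file headers. Totals ran from 64479829 to 73098735 units per library. Of the 33 members, 29 had identical coordinates in GENCODE M21 (GRCm38).

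Counts were tested with edgeR 4.0.16 under R 4.3.3: a filterByExpr minimum of 10 units, library sizes scaled by TMM, and a quasi-likelihood test (two-sided) comparing structured with smooth over 16006 genes, with 10842 left out. CPM used TMM-scaled totals. Log2 CPM for library medians used a prior of 2 units. Fold changes with limma 3.58.1 are on the log2(FPKM + pseudocount) scale, which understates low genes. Alternatives included DESeq2 1.42.0, voom, other filters, a replicate block and each library left out. The edgeR step was tested on simulated data. Genes given library by library were those past the threshold, the 5 highest by FPKM, the 3 highest and 3 lowest fold changes and Ifit3 with Ifit3b; per-library values of Isg15 and Sting1 were chosen after being seen. From the other lists, the rule named members past the threshold, the most abundant one, and ligands and receptors. The most abundant one was not named for every list, and some genes were named outside the rule. Members and lists were chosen with earlier results of these data known. Figures were drawn with matplotlib 3.10.9.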

Additional observations from a re-analysis of the deposited data

Results flagged for a closer look

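Of 66 groups of 4 libraries checked, 2 per tested gene and 2 for the library medians, 1 held a library far from the other 3, where chance alone flags about 1 in 20 groups. Mx2, which encodes an interferon-induced GTPase, stood at 0.811 CPM in smooth 1, against 0.360 to 0.434 CPM in smooth 2 to 4. In structured 1 to 4 it stood at 1.02, 0.605, 0.270 and 0.853 CPM.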

How the results depend on the processing

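Of the 32 tested genes, 31 kept the sign of their log2 fold change in every alternative that gave a value; the exception was Adar, at -0.03 without structured 2 (-0.03 to 0.05 over the 8 libraries left out). No member was called lower in any alternative, including each library left out (0 to 0). The 6 members called higher became 12 with DESeq2 (which gave no adjusted p for 9 members), 1 with no filter on low counts, 1 with limma on log2(FPKM + 0.5), log2(FPKM + 0.1) or log2(FPKM + 1), and 0 in structured 1 alone against smooth; leaving out 1 library gave 1 to 10. All genes called higher, 161, became 553 with DESeq2, 47 with no filter, 67, 72 and 60 with limma on FPKM at pseudocounts of 0.5, 0.1 and 1, and 3 in structured 1 alone, and 21 to 170 with 1 library left out. All genes called lower, 440, became 880, 142, 121, 130, 114 and 4 in the same order, 67 to 427 with 1 library left out, and 225 once the trend on GC content and length was removed. The members' median log2 fold change, 0.49, was 0.43 to 0.60 with 1 library left out and 0.24 with limma on log2(FPKM + 1), whose pseudocount shrinks low genes; the cause of the other changes was not tested. Removing the GC and length trend and the 5-library comparison were chosen after seeing the data. With the replicate block 5 members were called higher (Irf7 added, Parp9 and Ube2l6 lost), and 125 and 374 of all genes were called higher and lower. Same-numbered libraries had correlations of -0.159 to 0.076 over genes and did not all correlate best with each other. With 4 libraries per group these values cannot tell whether same-numbered libraries shared a culture or day, and the labels do not say. Zbp1, Ifit3b and Mx1 stood near or under 3 fragments per library, and Zbp1 and Ifit3b had the widest errors (SE 0.83 and 0.71).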
